A study of Rattus norvegicus with 6 samples.

Results

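Mir483, Mir675, Mir296, Mir298 and Mir335 are microRNA (miRNA) genes that lie in imprinted loci outside the Prader-Willi syndrome (PWS) domain. They were chosen by gene symbol as the miRNAs of the Igf2, H19, Gnas/Nespas and Mest loci. Of the 5 genes, 4 were found among the 32883 genes of the table, and Mir335 of the Mest locus was not analysed here. All 4 found genes had at least 1 read, and 3 of them reached the mean of 5 normalized reads that was required for a test.

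The small RNA libraries came from 6 genome-edited clones of INS-1, an insulin-secreting rat insulinoma line with transgenes for human insulin and for a mouse insulin 2 fused to mCherry. The 3 control lines (5-9, 2 and 16) lack the PWS domain on the silent maternal allele, and the 3 PWS lines (3, 19-1 and 19-4) lack it on the maternal and on the active paternal allele. Every line thus carries the maternal deletion, and every line other than 5-9 was derived from line 5-9. Lines 19-1 and 19-4 are subclones of 1 edited line. Per the paper, control lines 2 and 16 came from 5-9 cells that received a control vector. The PWS lines came from 5-9 cells that received a further round of editing, and line 3 has a larger deletion. Genotype and this further round cannot be told apart here. All lines were grown in 7.5 mM glucose, with no treatment and 1 library per line.

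An imprinted gene is transcribed mainly from the allele inherited from 1 parent, neighbouring genes of a locus can be expressed from opposite alleles, and the choice is set by DNA methylation at an imprinting control region. Igf2, a fetal growth factor gene expressed from the paternal allele, carries Mir483 in an intron. H19, a noncoding RNA gene expressed from the maternal allele, carries Mir675 in its first exon. Mir296 and Mir298 are neighbours in the Gnas locus, where Nespas is a noncoding RNA transcribed antisense to Nesp on the paternal allele and Gnas, which is expressed from both alleles in most tissues, encodes the stimulatory G protein subunit that couples hormone receptors to cyclic AMP. None of these loci is part of the PWS domain, so in both groups of lines they were left outside the targeted deletions.

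A miRNA acts through its seed (bases 2 to 8 of the mature strand), which pairs with target mRNAs. The mature sequences are printed to show what the reads of each gene stand for, 5′ to 3′ with the seed in capitals, from RefSeq (GRCr8), in which 4 of the 5 genes were matched.
rno-miR-483-5p: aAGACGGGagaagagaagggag
rno-miR-483-3p: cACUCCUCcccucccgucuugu
rno-miR-675-5p: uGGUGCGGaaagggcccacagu
rno-miR-675-3p: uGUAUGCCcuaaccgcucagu
rno-miR-296-5p: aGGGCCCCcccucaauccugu
rno-miR-296-3p: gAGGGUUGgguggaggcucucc
rno-miR-298-5p: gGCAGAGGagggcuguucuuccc
rno-miR-298-3p: aGGAACUAgccuucucucugcu
The 8 mature strands carried 8 different seeds, and 0 other mature sequences among the 724 of the reference table shared one of them. All 8 had a G+C content above the median of the 724 sequences, which was 47.6%, and ranged from 50.0% in miR-298-3p to 68.2% in miR-296-3p. The files count reads per gene, so the 5p and 3p strands of 1 gene cannot be told apart here.

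In GRCr8 the Mir483 hairpin lies at chr1:207247859-207247931 on the minus strand, within the annotated gene Igf2. The Mir675 hairpin lies at chr1:207161752-207161835 on the minus strand, within H19 and within a second noncoding RNA gene, LOC102548505. Mir296 (chr3:183470069-183470146) and Mir298 (chr3:183470522-183470603) lie on the minus strand with 375 bases between their hairpins, next to Gnas and within no annotated gene of that table. The deposited files were made on Rnor_6.0 and hold no coordinates.

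The 6 libraries held between 7373691 and 16480475 reads. As a check of the genotype labels, the 6 rows with a Mir344 symbol, miRNAs of the deleted domain, gave 1416 ± 273 normalized reads in the controls (SD, n = 3) and between 0 and 2.64 in the PWS lines. The β-cell marker Mir375 lay between 558022 and 833397 normalized reads in every line and Ins1 fragments between 88.3 and 285, whereas the islet hormone genes Gcg, Sst, Ppy and Ghrl had 0 reads. Fragments of Col1a1, Mir145 and Cpa1 had 0 reads, Mir223 had 4 in all, and Mir142, a miRNA of blood cells, lay between 43.1 and 75.1 normalized reads. Of the other markers, Iapp lay between 11.8 and 56.3 normalized reads, Ins2 between 0 and 30.1, Mir143 between 13.1 and 48.8, Mir217 between 1.05 and 10.8 and Mir216a between 0 and 6.54, Mir7a1 was at least 620377 in every line, Mir451a, a miRNA of red blood cells, lay between 1.19 and 3.92, and Amy2a3 was not analysed here.

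The 4 miRNAs spanned more than 3 orders of magnitude in level. Mir483 had a mean of 1757 normalized reads over the 6 lines and ranked 105 among 350 miRNA genes with a Mir symbol and reads. Mir298 averaged 31.8 (rank 209), Mir296 averaged 6.57 (rank 248) and Mir675 averaged 0.712 (rank 308). Normalized reads are read counts divided by a size factor for each library. Per base of hairpin the mean levels were 24.1 normalized reads for Mir483, 0.388 for Mir298, 0.0843 for Mir296 and 0.00848 for Mir675. The order Mir483, Mir298, Mir296, Mir675 was the same in every line, with no overlap between the ranges of neighbours over the 6 lines.

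**Figure D1:**
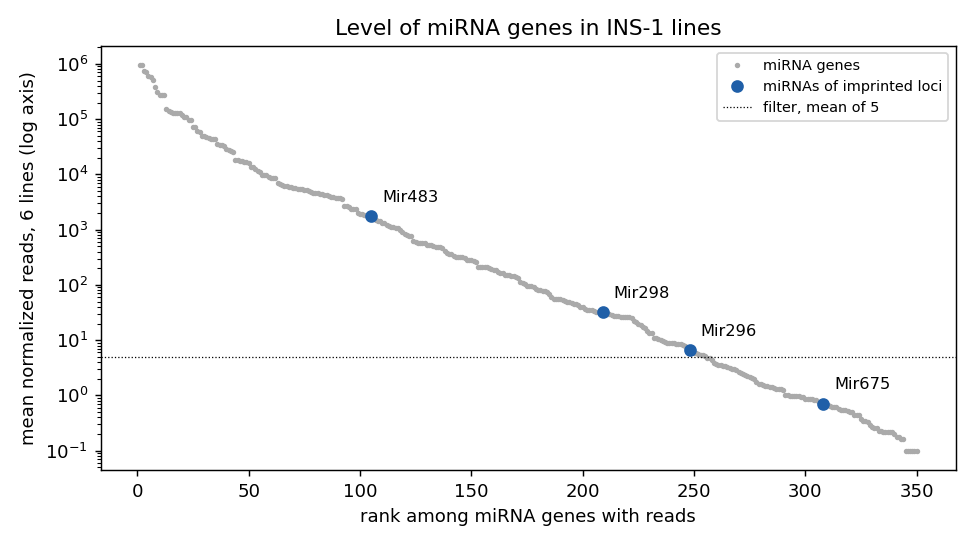
Mean normalized reads over 6 lines (log axis) of the 350 miRNA genes with reads, ordered by rank, with the 4 miRNAs of imprinted loci in blue and the filter at a mean of 5 as a dotted line. Mir483 stands at rank 105 with 1757 normalized reads, Mir298 at rank 209, Mir296 at rank 248 and Mir675, below the filter, at rank 308.

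The question for each miRNA was whether loss of the paternal PWS domain was accompanied by a change of its level. The limma test called 0 of the 3 tested miRNAs at an adjusted p under 0.1, and 0 had an unadjusted p under 0.05. By edgeR, DESeq2 and limma-voom 0 were called as well. Over all 4292 genes tested, 1.28% were called, all lower in PWS lines, and 5.96% had an unadjusted p under 0.05. Of the 55 called genes, 48 carry the symbols of Snord116, Snord115, Snord107 or Mir344, families of the deleted domain, and 4 are clone-named rows with 0 reads in every PWS line. The remaining 3 were Dusp4, Mir3065 and Mir135b, named here after their values were seen. Without the 4 named families 0.165% of 4243 genes were called. Among the 255 tested miRNA genes with a Mir symbol 2.75% were called, 5 of these 7 being Mir344 genes, and without Mir344 genes 0.8% of 250. The groups overlapped in all 3 tested miRNAs, whereas they did not overlap in 11.2% of all genes tested. The median log2 fold change was -0.08 for the 3 miRNAs and 0.0048 for all genes tested. In libraries made from whole cultures, fewer cells with a miRNA and fewer copies per cell cannot be told apart.

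Mir483, the miRNA of the Igf2 locus, stood at 1610, 2301 and 1794 normalized reads in control lines 5-9, 2 and 16. The values of PWS lines 3, 19-1 and 19-4 were 1754, 1894 and 1187. Control line 2 was highest, PWS line 19-4 was lowest, and the other 4 lines of both genotypes lay between 1610 and 1894. The group means were 1902 ± 358 in control and 1612 ± 375 in PWS lines (SD, n = 3). The log2 fold change, PWS minus control on the log2(normalized reads + 1) scale, was -0.25 ± 0.26 (SE), with a 95% interval from -0.79 to 0.29 and a limma adjusted p of 0.894. The difference was smaller than the spread between lines, and the interval allows PWS levels from 0.577 to 1.22 times the control level.

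The depth behind Mir483 was 900 to 2954 reads per line, enough to separate single lines. The exact 95% Poisson interval was 1110 to 1267 normalized reads in line 19-4 and 2195 to 2411 in line 2, and neither overlapped that of another line. Intervals of this kind cover counting error only. Lines 19-1 and 19-4, which share their edit, differed 1.60-fold in Mir483. The median of this ratio over 251 tested miRNA genes was 1.22. Line 19-4 held the lowest value of the 6 lines in 45.5% of the 255 tested miRNA genes, and the part this has in its Mir483 level was not tested. Without line 19-4 the log2 fold change of Mir483 was -0.04, and without control line 2 it was -0.11.

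**Figure D2:**
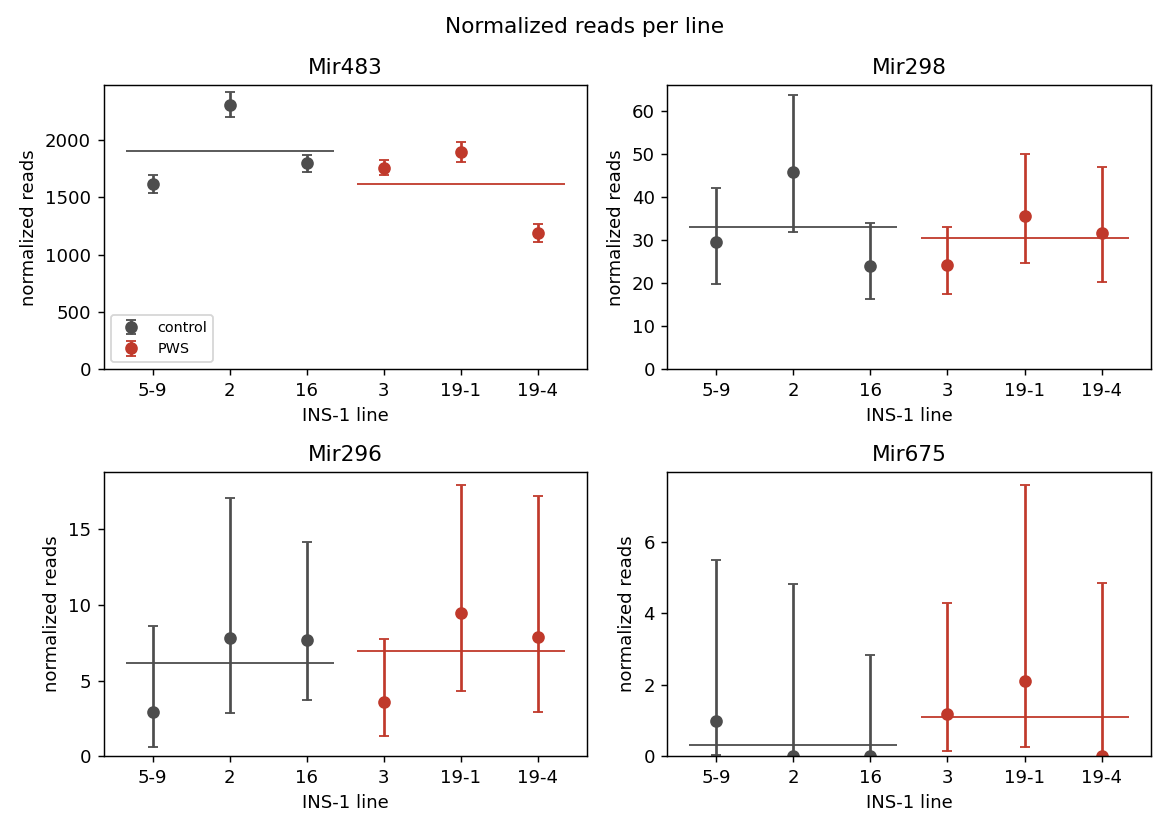
Normalized reads of Mir483, Mir298, Mir296 and Mir675 in each of 3 control (grey) and 3 PWS (red) lines, with exact 95% Poisson intervals as bars and group means as horizontal lines. PWS line 19-4 is lowest and control line 2 highest for Mir483, and the points of both groups overlap in all 4 panels.

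The gene Igf2, which holds Mir483, gave 192 reads of fragments in all. It stood at 25.6, 32.7 and 36.3 normalized reads in control lines 5-9, 2 and 16 and at 26.1, 29.4 and 29.0 in PWS lines 3, 19-1 and 19-4. The groups overlapped, with a log2 fold change of -0.14 ± 0.33 (SE) and a limma adjusted p of 0.956. Mir483 exceeded the Igf2 fragments 60.9 ± 10.6 times in control and 57.5 ± 14.4 times in PWS lines (SD, n = 3). An exact two-sided permutation test of the log2 of this ratio gave p = 0.7, with 0.1 the smallest that 3 lines against 3 can give. The ratio itself was lowest in line 19-4, at 40.9. The order of its means turned without that line, with 65.8 in PWS against 60.9 in control lines, and without control line 2, with 57.5 against 56.2. Both deposited tables held the same Igf2 and Mir483 reads, so 0 of them had been assigned to more than 1 gene.

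Mir298 of the Gnas locus stood at 29.5, 45.8 and 23.9 normalized reads in control lines 5-9, 2 and 16. The values of PWS lines 3, 19-1 and 19-4 were 24.4, 35.7 and 31.6. Control line 2 was again the highest, and the PWS lines lay within the range of the control lines. The fitted log2 fold change of -0.08 ± 0.35 (SE) had a 95% interval from -0.82 to 0.67, and the limma adjusted p was 0.979. The sign turned without control line 2, to 0.18, and without PWS line 3, to 0.07. Per line it rested on 24 to 41 reads, and the Poisson intervals of all 6 lines overlapped.

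Mir296, its neighbour, stood at 2.95, 7.84 and 7.72 normalized reads in control lines 5-9, 2 and 16. The values of PWS lines 3, 19-1 and 19-4 were 3.56, 9.45 and 7.91. Lines 5-9 and 3 were the lowest of their groups, and the other 4 lines lay between 7.72 and 9.45. The fitted log2 fold change of 0.16 ± 0.53 (SE) had a 95% interval from -0.96 to 1.28, and the limma adjusted p was 0.973. The sign turned in 4 of the 15 alternatives that moved the value, to -0.027 with limma-voom, -0.018 with lines 19-1 and 19-4 averaged, -0.22 without line 5-9 and -0.08 without line 19-1. It rested on 40 reads in all, 3 to 10 per line, and the interval allows PWS levels from 0.513 to 2.43 times the control level.

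**Figure D3:**
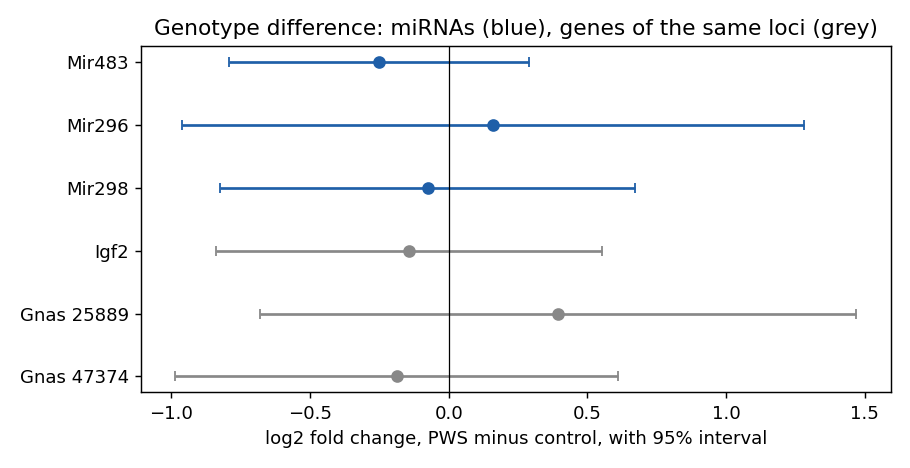
Fitted log2 fold change, PWS minus control, with its 95% limma interval for the 3 tested miRNAs (blue) and for the tested Igf2 row and both Gnas rows (grey, labelled by the last digits of their identifiers). All 6 intervals include 0, and the interval of Mir296, from -0.96 to 1.28, is the widest of the 3 miRNAs.

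Taken as a pair, Mir296 and Mir298 gave 235 reads, of which Mir298 made up 83.0%, with an exact Clopper-Pearson 95% interval of 77.6% to 87.6%. Mir298 exceeded Mir296 in all 6 lines. Its share was 90.9%, 85.4% and 75.6% in control lines 5-9, 2 and 16 and 87.2%, 79.1% and 80.0% in PWS lines 3, 19-1 and 19-4. The PWS shares lay within the range of the control shares, and the log2 ratio of Mir298 to Mir296 differed between groups by -0.24 (exact two-sided permutation p = 0.7), a value that turned to 0.094 without control line 5-9 and was -0.62 without control line 16. The summed pair averaged 39.2 ± 12.4 normalized reads in controls against 37.5 ± 8.80 in PWS lines (SD, n = 3), and the log2 difference was -0.05 (exact two-sided permutation p = 1), which turned to 0.19 without control line 2 and to 0.15 without PWS line 3.

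**Figure D4:**
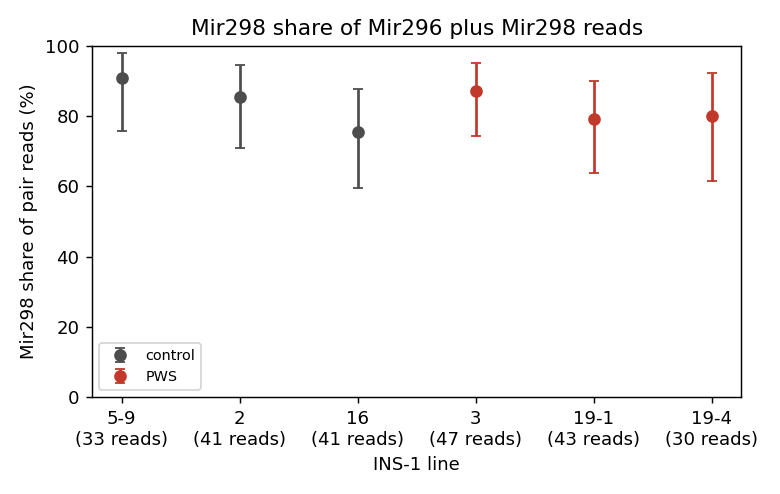
Share of Mir298 in the summed reads of Mir296 and Mir298 (percent) per line, with exact Clopper-Pearson 95% intervals, for 3 control (grey) and 3 PWS (red) lines. Shares run from 75.6% in control line 16 to 90.9% in control line 5-9, and the intervals of all lines overlap.

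Gnas itself is listed in 2 rows, which share reads. The row ENSRNOG00000047374 stood at 46.3, 23.5 and 61.0 normalized reads in control lines 5-9, 2 and 16 and at 38.6, 28.4 and 40.9 in PWS lines 3, 19-1 and 19-4. Line 2, highest of all lines in Mir298, was lowest in this row. The fit gave this row a log2 fold change of -0.19 ± 0.38 (SE; limma adjusted p of 0.950). The row ENSRNOG00000025889 lay between 2.61 and 11.9 normalized reads, with a log2 fold change of 0.39 ± 0.51 (SE) and a limma adjusted p of 0.918. From 2 to 9 reads per line were counted in both rows, so values of the single rows are uncertain.

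Mir675, the miRNA cut from H19, was at the limit of detection. It had 1 read in control line 5-9, 2 in PWS line 3, 2 in PWS line 19-1 and 0 in the other 3 lines, or 5 of 67377309 reads. For lines without a read, 3 reads would correspond to 3.92 normalized reads in control line 2, 2.31 in control line 16 and 3.96 in PWS line 19-4. The pooled level was 1.18 normalized reads in PWS and 0.325 in control lines, a ratio of 3.63 with an exact 95% counting interval of 0.359 to 179. No difference between the genotypes was detectable at this depth.

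Mest, the gene whose intron holds Mir335, gave 21 reads of fragments, which lay between 1.05 and 9.15 normalized reads per line and stayed below the filter. A list of 55 genes of imprinted loci outside the PWS domain was followed through the same fit. Of these, 44 symbols were found, in 45 rows, and 10 rows passed the filter. The limma test called 0 of the 10 rows, and 0 had an unadjusted p under 0.05. By edgeR, DESeq2 and limma-voom 0 were called as well. Of the 10 rows, 8 had a higher and 2 a lower mean log2 level in PWS lines. They include 2 Gnas rows, which share reads and went in opposite directions, so these are not counts of separate genes. The rows held from 36 to 267 reads over the 6 lines. H13 of the list has its row under its other symbol Hm13 and is not among the 10, with a log2 fold change of 0.65 ± 0.51 (SE) and a limma adjusted p of 0.885. The median log2 fold change of the 10 rows was 0.33, against 0.0048 for all genes tested, and the values ran from -0.19 for a Gnas row to 0.74 for Peg3. Peg3, a paternally expressed zinc finger gene that was picked out after its values were seen, averaged 26.1 normalized reads in control and 41.8 in PWS lines (log2 fold change 0.74 ± 0.37, SE; limma adjusted p of 0.835).

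The spread of the 3 tested miRNAs between lines was compared with that of other tested miRNAs at their level. The SD of the log2 level over the 6 lines was 0.31 for Mir483, against a median of 0.30 for 26 miRNA genes within a factor of 2 of its mean. It was 0.34 for Mir298 against 0.47 for 42 such genes, and 0.59 for Mir296 against 0.66 for 23. Among 254 other tested miRNA genes, the patterns most like that of Mir483 over the 6 libraries were those of Mir125a and Mir99b, with a Pearson r of 0.93 each. For Mir298 they were Mir486 (r = 0.94) and Mir16 (r = 0.88), and for Mir296 they were Mir10a and Mir423 (r = 0.73 each). The named genes were picked as the highest of 254 correlations over 6 points, so high values of r arise by selection. An r above 0.9 was reached by 7 genes for Mir483, 1 for Mir298 and 0 for Mir296. These values describe 6 libraries, which share their depth and size factors across genes.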

How the data were processed

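Per the study's methods and the submitters' processing notes, the authors deduplicated reads with UMI-tools 1.0.0, trimmed them with cutadapt 1.18, aligned them with Bowtie2 2.3.4.2 on a custom rat annotation (Rnor_6.0) and counted genes with HTSeq 0.11.2. The deposited values are a signal, gene counts divided by a DESeq2 size factor, in 2 tables that add reads of several genes to each gene ("all", used here) or leave them out ("none"). Within a tolerance of 0.001, 100% of the nonzero values were whole multiples of the lowest one in their column, and reads were recovered from these steps. The authors' own mean, fold change and p-value columns, also deposited, were not used.

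limma-trend (limma 3.58.1, R 4.3.3) was fitted to log2(normalized reads + 1) for genes with a mean of at least 5, with a genotype term only. P-values were adjusted by the Benjamini-Hochberg method, and calls required an adjusted p under 0.1. Fold changes on this scale understate changes of genes with few reads. The fit was tested on simulated data. Alternatives were pseudocounts of 0.5 and 5, filters at 1, 20 or none, TMM and upper-quartile scaling, edgeR 4.0.16 and DESeq2 1.42.0 and limma-voom on recovered reads, the "none" table, a threshold of 0.05, a replicate block, averaged subclones and leaving out each line. Nothing states that libraries came from repeated cultures, so p-values measure the spread between 6 clonal lines. Named were the miRNAs, the genes of their loci, a Mir344 label check, cell type markers, called genes of the imprinted list, miRNAs with a shared seed and the 2 most correlated miRNA genes each. Peg3, Hm13, Dusp4, Mir3065 and Mir135b fall outside this rule. Genes were counted as miRNA genes by a Mir symbol, which leaves out 6 rows under rno-mir symbols. Members and lists were chosen with earlier results of these data known.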

Additional observations from a re-analysis of the deposited data

How the results depend on the processing

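The log2 fold change of Mir483 was negative in all 15 alternatives that moved it, from -0.38 to -0.04, and 5 others (the filters, the threshold and the replicate block) left it as it was by construction. Its adjusted p ran from 0.848 to 1.00 over the 20. No alternative called a member or a gene of the imprinted list, and the number of genes called in all ranged from 41 to 66. With lines 19-1 and 19-4 averaged the log2 fold change of Mir296 turned to -0.018, and with limma-voom to -0.027. Leaving out each line in turn gave values from -0.22 to 0.52 for Mir296, from -0.28 to 0.18 for Mir298, from -0.19 to 0.19 for their sum, and from -0.62 to 0.094 for the log2 ratio of Mir298 to Mir296. The signs of Mir298 and of the sum changed without control line 2 or PWS line 3, that of Mir296 without control line 5-9 or PWS line 19-1, and that of the ratio without control line 5-9. The cause was not tested. Alternatives for the ratio of Mir483 to Igf2 fragments were chosen after seeing the data, and its difference, PWS minus control, ran from -9.16 to 4.85 when each line was left out, turning to 1.30 without control line 2 and to 4.85 without PWS line 19-4, against -3.44 with all lines. With no filter Mir675 entered the test, with a log2 fold change of 0.59 and a limma adjusted p of 0.890. Its log2 difference was 0.18 with a pseudocount of 5 and ran from 0.24 without PWS line 19-1 to 1.05 without PWS line 19-4. Mir296 has no value with a filter at 20. A replicate block in the fit gave 56 called genes against 55, and no call of a member changed (Mir483 -0.25, limma adjusted p of 0.869). Whether the replicate numbers pair the lines was not settled. Correlations of same-numbered lines, as deviations from their group means across 1087 genes, were 0.414, 0.218 and -0.0574. Lines of different numbers were not compared, so these values have no reference. Mir675 rested on 5 reads and Mir296 on 40 over the 6 lines, and counting error and the spread between lines were not separated for them.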
